A study of Homo sapiens with 20 samples.

Results

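The genes described here are 8 genes of cholesterol synthesis, HMGCS1, MVD, IDI1, FDPS, FDFT1, SQLE, LSS and DHCR7, in HUDEP-2 cells during erythroid differentiation. They were picked by gene symbol, and all 8 were found among the 46425 gene symbols of the transcript tables, after the 59 transcripts listed under these symbols were summed by gene. HUDEP-2 is an established line, made by immortalizing erythroid progenitor cells of umbilical cord blood, and every library came from wild-type cells of it. RNA was taken from undifferentiated cells, called day 0, and from cells on days 1, 2, 3, 4, 5, 6, 7, 8 and 12, with 2 libraries on each of the 10 days.

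Day 0 cells were expanding in StemSpan SFEM medium with stem cell factor (SCF), erythropoietin and doxycycline, to which the study's methods add dexamethasone. Cells of the later days were in IMDM with human AB serum, holo-transferrin, heparin, insulin, L-glutamine, erythropoietin, SCF and doxycycline, from which SCF was taken out on day 6 and doxycycline on day 8. The change from day 0 to day 1 is therefore also a change of basal medium and of the additions named above, with a first contact with serum. These changes cannot be told apart from a first day of differentiation. The study names day 0 cells pro-erythroblasts, those of days 4 to 6 basophilic, those of day 8 polychromatic and those of day 12 orthochromatic erythroblasts and reticulocytes.

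Cholesterol is built from acetyl-CoA. HMGCS1 makes HMG-CoA at the entry of the mevalonate pathway, MVD turns mevalonate diphosphate into isopentenyl diphosphate, IDI1 isomerizes it, and FDPS joins such units into farnesyl diphosphate, from which prenylated proteins, dolichol and ubiquinone also derive. FDFT1 (squalene synthase) commits farnesyl diphosphate to sterols, SQLE adds the epoxide to squalene, LSS closes the ring to lanosterol, and DHCR7 reduces 7-dehydrocholesterol in the last step of a late branch. In most cells these genes are activated together by SREBF2 when membranes run short of sterol, with NF-Y and Sp1 as partner factors at their promoters. Red cell precursors divide and then shed their nucleus and organelles, while the mature cell takes its cholesterol from plasma.

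Each library held between 52131713 and 70358198 counts, so that counting error was small for these genes, whose lowest count in any library was 436, for DHCR7. One library of each day came from a table of all days (set A). The other came from a table of days 0 to 6, of days 7 and 8 or of day 12 (set B). In set B the steps from day 6 to day 7 and from day 8 to day 12 thus also cross tables, and the part of this was not tested. Between the libraries of a day, 69.2% to 82.4% of genes with at least 50 counts over both differed by more than sampling noise, so the libraries of a day were not a single library deposited again. The labels do not say whether the libraries of a day were separate cultures, and the p-values measure only the spread between them. Globin genes took 0.819% to 33.7% of the counts of a library. Ribosomal RNA genes took 17.6% and 16.8% of the counts in the set B libraries of days 7 and 8, which stood apart from the other 18 libraries at 0.737% to 2.68%. The 11 erythroid markers summed to 32063 and 31537 TPM (a level per transcript length, scaled to a fixed total per library) on day 0. On day 12 they summed to 626465 and 592361 TPM, mostly from globin genes, with HBB at 332052 and 284879 TPM. Between these days TFRC fell from 2579 and 1852 to 231 and 486 TPM, and GATA1 from 216 and 209 to 120 and 125 TPM. The rest of the 11 were higher on day 12 in both sets. The 3 progenitor markers KIT, GATA2 and MYB went from 668 and 802 TPM on day 0 to 5.83 and 8.66 TPM on day 12. The 3 lymphocyte markers had at most 3 counts in every library, and the 5 monocyte and macrophage markers summed to at most 31.9 TPM, on day 1 of set B, on the days tabulated (0, 1, 4, 8 and 12). The 4 megakaryocyte markers summed to 10.7 and 69.0 TPM on day 0 and to 0.140 and 0.292 TPM on day 8, and their part in the results was not tested. Nearly all of the day 0 sum was ITGA2B, at 10.7 and 68.9 TPM, while PF4 and PPBP were at 0 in every library. In bulk RNA, fewer cells of a type and less RNA per cell cannot be told apart.

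To show letters of regulatory sequence near these genes, the 250 bases before the outermost start of each gene in the deposited tables were read from hg38 and searched on both strands for CCAAT, the box bound by NF-Y. Of the 8 genes, 7 held at least 2 such boxes, as did 11.1% of the 14790 tested genes with a window, and IDI1 held none before its outermost start. The outermost start is that of the leading transcript, the one with the highest mean TPM, in SQLE and LSS, and lies 6 to 118 bases from it in HMGCS1, MVD, FDPS and DHCR7. In FDFT1 it lies 7168 bases away and gave 0.0564% to 1.07% of the TPM of the gene in a library, and in IDI1 it gave 1.39% to 13.6%. The count of 7 is thus not a count at the starts most in use. The letters TCACNCCAC, of the type of a sterol regulatory element, were in the HMGCS1 window alone among the 8, against 1.13% of all windows, and the Sp1 type letters GGGCGG were in 6 of 8, against 55.9%. A match is a description of the letters, not of a bound site. Windows are given for HMGCS1, MVD and DHCR7, which act at the entry, within the mevalonate steps and at the far end of the pathway. A window is also given for the outermost start of IDI1, whose share on day 12 lay within its earlier range. Capitals mark CCAAT or its reverse complement ATTGG and, in HMGCS1, the sterol regulatory element type letters. The windows are written 5′ to 3′ on the strand of the gene (minus for all 4). In the order printed they are chr5:43313478-43313727, chr16:88663154-88663403, chr11:71448394-71448643 and chr10:1056705-1056954.
HMGCS1: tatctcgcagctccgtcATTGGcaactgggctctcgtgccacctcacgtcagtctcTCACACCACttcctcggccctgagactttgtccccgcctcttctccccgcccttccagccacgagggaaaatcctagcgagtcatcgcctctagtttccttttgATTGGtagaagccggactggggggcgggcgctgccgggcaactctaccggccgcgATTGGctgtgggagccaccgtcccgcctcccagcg
MVD: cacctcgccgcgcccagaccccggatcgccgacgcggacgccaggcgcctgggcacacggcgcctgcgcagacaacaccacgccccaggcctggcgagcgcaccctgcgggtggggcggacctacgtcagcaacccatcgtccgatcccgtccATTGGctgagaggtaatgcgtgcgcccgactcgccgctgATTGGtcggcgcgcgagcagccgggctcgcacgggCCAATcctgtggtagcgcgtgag
DHCR7: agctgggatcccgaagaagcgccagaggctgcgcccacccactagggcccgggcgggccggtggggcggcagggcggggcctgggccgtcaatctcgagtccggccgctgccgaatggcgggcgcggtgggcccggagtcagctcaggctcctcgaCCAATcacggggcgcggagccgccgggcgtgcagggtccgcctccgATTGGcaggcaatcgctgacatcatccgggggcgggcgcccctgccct
IDI1 outermost start: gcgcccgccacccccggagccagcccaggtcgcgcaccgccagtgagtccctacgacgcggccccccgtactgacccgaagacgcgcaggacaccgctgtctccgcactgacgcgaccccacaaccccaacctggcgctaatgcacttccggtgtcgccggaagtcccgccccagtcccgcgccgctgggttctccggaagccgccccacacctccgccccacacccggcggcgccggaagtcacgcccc

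On day 0 the transcripts of all 8 genes were abundant. HMGCS1 stood highest at 868 ± 170 TPM (mean ± SD, n = 2), followed by FDFT1 at 421 ± 47.3, FDPS at 411 ± 8.80 and SQLE at 360.4 ± 3.54 TPM. IDI1 at 100.0 ± 4.46, DHCR7 at 87.8 ± 11.1, MVD at 66.6 ± 3.35 and LSS at 57.6 ± 0.799 TPM formed a lower tier. FDFT1 and FDPS did not differ beyond their spread, nor did IDI1 and DHCR7. By day 8 the order had changed, with FDFT1 at 210.9 ± 13.7 TPM, FDPS at 143 ± 17.2 and SQLE at 102 ± 1.02 TPM above HMGCS1 at 42.4 ± 4.06 TPM. The lowest places were held by MVD at 36.6 ± 2.02, IDI1 at 32.0 ± 5.78, LSS at 15.3 ± 2.07 and DHCR7 at 13.3 ± 0.199 TPM, and neither HMGCS1, MVD and IDI1 nor LSS and DHCR7 differed beyond their spread from their neighbours in this order. On day 12, FDFT1 at 170.1 ± 10.5 TPM was far above the other 7, which lay between 3.96 ± 1.25 TPM for DHCR7 and 34.1 ± 11.9 TPM for SQLE.

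**Figure D1:**
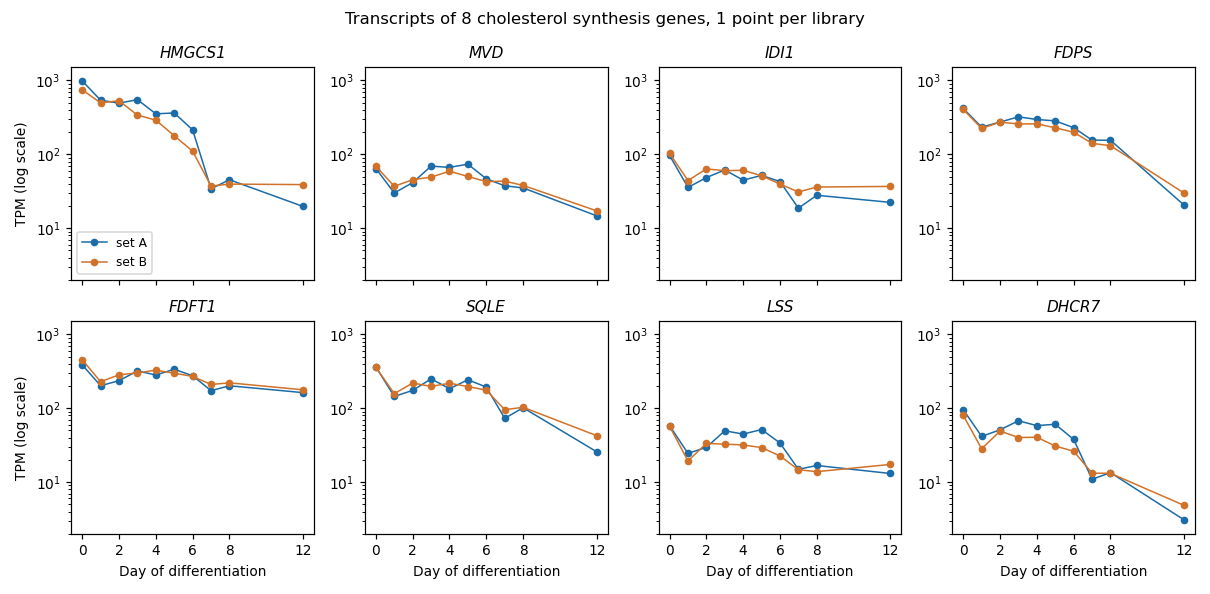
TPM of each of the 8 genes (log axis) against the day of differentiation, with 1 point per library and lines joining the libraries of set A and of set B. All 8 genes dipped on day 1 in both sets, and HMGCS1 dropped from 988 and 748 TPM on day 0 to 45.3 and 39.6 TPM on day 8.

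All 8 genes differed between days (edgeR F test over the 10 days, adjusted p from 1.12e-06 for FDPS to 0.0180 for MVD), as did 65.7% of the 16784 genes tested. The question that follows is when the levels moved. Comparisons between days were made for this in 5 pairings, on counts scaled by TMM, a method that sets most genes to no change. Neighbouring comparisons share libraries, so their results are not independent of each other.

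On day 1 all 8 genes lay below their day 0 level, and 3 of them passed the test. In TPM, every one of the 8 was lower in both sets, as were 40.9% of tested genes, to 36.8% to 55.8% of the day 0 TPM in set A and to 33.9% to 66.4% in set B. For SQLE, the squalene epoxidase, the level went from 363 and 358 TPM to 144 and 157 TPM. For LSS it went from 58.2 and 57.0 TPM to 24.5 and 19.4 TPM, and for FDPS from 418 and 405 TPM to 233 and 224 TPM. In each of these genes the libraries of the days stood clearly apart. In all 8, both day 1 libraries lay below both day 0 libraries on the TMM scale, which 18.8% of tested genes also did. The 5 monocyte and macrophage markers summed to 6.54 and 10.0 TPM on day 0 and to 15.7 and 31.9 TPM on day 1, mostly from CD68, at 5.76 and 8.51 and then 14.9 and 30.6 TPM, and their part in the day 1 values was not tested.

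Of the 8, 3 passed the test across all genes. The log2 fold change was -0.75 (SE 0.12, edgeR adjusted p = 0.0133) for FDPS, -1.17 (SE 0.20, adjusted p = 0.0221) for SQLE and -1.30 (SE 0.24, adjusted p = 0.0376) for LSS. Only 0.125% of all genes, 21 of 16784, were called lower in this comparison and 0.256% higher. The other 5 had log2 fold changes of -0.66 (HMGCS1) to -1.26 (DHCR7) with edgeR adjusted p from 0.0770 to 0.596. The median of the 8 was -1.04, beside 0.00 over all genes. The count depended on the model, and the share of all genes called is given only for the fit above. DESeq2 called 7 of 8, all but HMGCS1, a term for the set of tables also gave 7, and limma on log2(TPM + 1) gave 6, whereas an edgeR fit of the 4 libraries of these days alone, and each edgeR fit without 1 of these libraries, gave 0. At an unadjusted p under 0.05 the edgeR fit of these days alone gave 8 genes, and the share of all genes at that threshold is not given. Without 1 library, the log2 fold changes of the 8 genes lay between -0.49 (HMGCS1) and -1.50 (DHCR7).

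A partial return followed. From day 1 to day 2, 7 of the 8 genes were higher in both sets, as were 32.9% of tested genes, the exception being HMGCS1, at 541 and then 493 TPM in set A and 497 and then 533 TPM in set B. MVD went furthest, from 30.0 and 37.0 TPM on day 1 to 73.6 and 50.2 TPM on day 5, next to 64.3 and 69.0 TPM on day 0. Its set A library of day 5 was thus above both day 0 libraries and its set B library below both. In set B, MVD stood higher on day 4, at 59.1 TPM. LSS stood at 51.5 and 29.3 TPM on day 5, and in set B it had been higher on day 2, at 33.4 TPM. The sets thus agreed on the direction from day 1 and not on its size or timing. FDFT1 stood at 337 and 297 TPM on day 5, between its day 1 levels of 202 and 228 TPM and its day 0 levels of 387 and 454 TPM.

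Across days 4 to 6 against day 1, 3 genes were called higher (4.36% of all genes) and 1 lower (6.38%). MVD rose with a log2 fold change of 0.82 (SE 0.18, edgeR adjusted p = 0.0114), LSS with 0.72 (SE 0.20, adjusted p = 0.0382) and FDFT1 with 0.54 (SE 0.16, adjusted p = 0.0489). HMGCS1 fell, with -1.04 (SE 0.25, adjusted p = 0.0181). IDI1, FDPS, SQLE and DHCR7 had log2 fold changes of 0.19 to 0.49 and did not pass. Leaving out either day 1 library ended the HMGCS1 call, and leaving out that of set A ended the 3 calls of higher genes. A single gene was called higher without the set B library of day 1 or the set A library of day 4, 5 or 6.

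HMGCS1, at the entry of the pathway, was lower on day 6 than on day 1 in both sets. In set A it stood at 988, 541, 493, 551, 354, 363, 215, 34.2, 45.3 and 19.7 TPM on days 0 to 8 and 12, and in set B at 748, 497, 533, 340.0, 290.2, 179, 110.5, 37.2, 39.6 and 39.0 TPM. The steepest step lay between days 6 and 7, from 215 to 34.2 TPM and from 110.5 to 37.2 TPM. At day 8 the level was 4.59% and 5.29% of that of day 0.

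DHCR7, at the far end of the pathway, was the gene whose profile over the 20 libraries was most like that of HMGCS1 (Pearson r = 0.90 on log2 CPM, counts scaled to the library total, after TMM, the highest of the 28 pairs). It stood at 95.7, 41.6, 51.0, 67.6, 58.1, 60.7, 37.8, 10.9, 13.4 and 3.08 TPM in set A and at 80.0, 28.2, 49.1, 40.1, 40.5, 30.8, 26.2, 13.2, 13.1 and 4.84 TPM in set B. The dip on day 1, the partial return and the lower levels after day 6 were all visible in both sets. The lowest correlation, -0.49, was between FDPS and FDFT1, and the median over the pairs was 0.46. These values describe libraries that share a time course and carry no test.

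Levels were lower again after day 5. From day 5 to day 6 all 8 genes were lower in both sets in TPM, beside 31.5% of tested genes. From day 6 to day 7, 7 of 8 were, beside 58.3% of tested genes, the exception being MVD at 42.7 and then 43.4 TPM in set B. In this second step globin genes went from 11.4% and 13.7% to 24.9% and 24.1% of the TPM of a library, and their part in it was not tested. In set B this step also crosses tables. From day 7 to day 8, 4 of the 8 were higher in both sets (14.9% of tested genes) and 2 lower (33.9%). Day 8 against days 4 to 6, 5 genes were called lower, against 10.8% of all genes, and none higher by edgeR (11.8% of all genes), DESeq2 or limma, since all 8 values were below 0. HMGCS1 fell by 2.08 on the log2 scale (SE 0.30, edgeR adjusted p = 0.000748), DHCR7 by 1.22 (SE 0.27, adjusted p = 0.00701), LSS by 0.73 (SE 0.20, adjusted p = 0.0220), SQLE by 0.53 (SE 0.17, adjusted p = 0.0389) and FDPS by 0.34 (SE 0.10, adjusted p = 0.0250). MVD, IDI1 and FDFT1 had log2 fold changes of -0.16, -0.11 and -0.04 and did not pass. On the TPM scale all 8 were called lower, where the median of all genes was -0.23, and a fit of only the days compared called 2. The share of all genes called in these other fits is not given. Leaving out 1 library left 1 to 5 calls, with HMGCS1 alone called without the set B library of day 8, 1 of the 2 with a high share of ribosomal RNA, 2 genes without that of set A and 3 without the set A library of day 5 or 6.

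Day 8 against day 0 gives the net change from proerythroblast to the polychromatic stage. Of the 8 genes, 6 were called lower, against 19.3% of all genes, and none higher by edgeR (17.6% of all genes), DESeq2 or limma. HMGCS1 fell by 3.78 on the log2 scale (SE 0.36, edgeR adjusted p = 7.99e-06), with 4.66% of genes lower still, and DHCR7 by 2.14 (SE 0.32, adjusted p = 0.000208). LSS fell by 1.31 (SE 0.24, adjusted p = 0.00108), SQLE by 1.21 (SE 0.20, adjusted p = 0.000507), IDI1 by 1.02 (SE 0.29, adjusted p = 0.0135) and FDPS by 0.90 (SE 0.12, adjusted p = 8.05e-05). The call on IDI1 was lost without the set B library of day 0 or the set A library of day 8 (highest adjusted p 0.113). FDFT1 had -0.38 (SE 0.19, edgeR adjusted p = 0.130) and MVD -0.25 (SE 0.21, edgeR adjusted p = 0.379). Limma on log2(TPM + 1) called both, at -0.99 and -0.85, where the median of all genes was -0.34. The share of all genes called by limma is not given. In 7 of 8 genes, all but MVD, both day 8 libraries lay below both day 0 libraries on the TMM scale, beside 34.8% of tested genes. The count of 6 was the same without the set B library of day 8, and with ribosomal RNA genes left out of the scaling it was 6 here and 5 against days 4 to 6. The median log2 fold change of the 8 was -1.12, beside 0.00 over all genes.

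**Figure D2:**
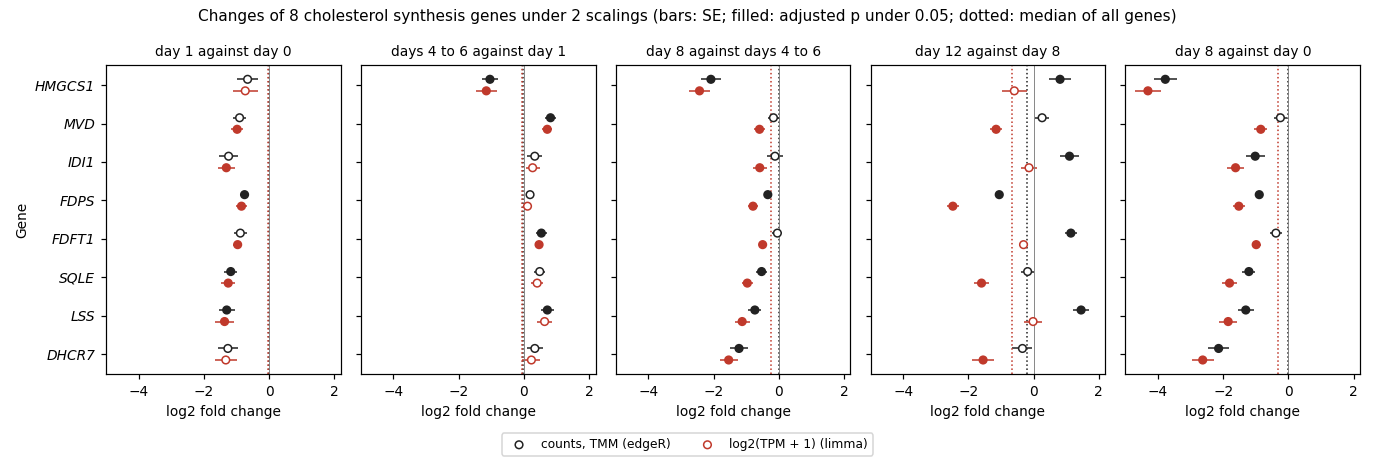
log2 fold changes of the 8 genes in 5 comparisons, from counts scaled by TMM (black, edgeR) and from log2(TPM + 1) (red, limma), with bars for the SE, filled points for an adjusted p under 0.05 and dotted lines for the median of all genes. The scalings gave the same sign in 4 comparisons, while in day 12 against day 8 the values of HMGCS1, MVD, IDI1, FDFT1 and LSS lay on opposite sides of 0.

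For day 12 the direction depended on the scaling. In TPM, 6 of the 8 genes were lower on day 12 than on day 8 in both sets (70.7% of tested genes) and none was higher in both. Globin genes held up to 63.0% of the TPM of a library. Scaled by TMM, 4 genes were called higher (23.7% of all genes) and 1 lower (33.4%), and the median of all genes was -0.20. LSS rose by 1.46 (SE 0.24, edgeR adjusted p = 0.000168), FDFT1 by 1.14 (SE 0.19, adjusted p = 0.000181), IDI1 by 1.10 (SE 0.29, adjusted p = 0.00477) and HMGCS1 by 0.81 (SE 0.33, adjusted p = 0.0470) on the log2 scale. With limma on log2(TPM + 1), where the median of all genes was -0.68, the same 4 genes had -0.02, -0.31, -0.14 and -0.59, and no gene was called higher by limma. Without the set A library of day 8, edgeR called 2 of the 4 higher.

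FDPS, which makes farnesyl diphosphate, fell under either scaling. It went from 155 and 131 TPM on day 8 to 20.5 and 29.9 TPM on day 12, a log2 fold change of -1.05 by TMM (SE 0.12, edgeR adjusted p = 4.15e-06) and -2.48 by TPM (SE 0.17, limma adjusted p = 6.41e-08). FDFT1, the next enzyme of the sterol branch, went from 201 and 221 TPM to 163 and 178 TPM. Relative to the RNA that is neither globin nor ribosomal, FDPS stood at 12.9% and 17.8% of its day 0 level on day 12, and FDFT1 at 111% and 94.6%. The levels of these enzymes, which act one after the other, had means of 411 and 421 TPM on day 0 and of 25.2 and 170.1 TPM on day 12. SQLE, LSS and DHCR7 stood at 18.7% and 28.7%, 59.2% and 73.6%, and 8.48% and 14.6% of day 0 on this rescaled measure. MVD stood at 60.3% in both sets.

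The transcripts of IDI1, on chromosome 10 at 1039152 to 1056704 (hg38, minus strand), were divided by where they start, a grouping chosen after the values were seen. The main start belongs to the leading transcript NM_004508 and to NR_134301, and an upstream group of 4 transcripts starts between 1056313 and 1056704. From day 0 to day 8 the main start gave 15.4 to 90.3 TPM and 65.5% to 96.3% of the gene in the 18 libraries, and the upstream group gave 1.43 to 15.6 TPM and 2.36% to 21.5%. On day 12 the main start was at 9.33 and 12.9 TPM, below all earlier libraries, and the upstream group at 9.05 and 15.1 TPM.

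The upstream group then held 40.4% and 41.1% of IDI1, above its share in every earlier library. Most of the gain lay in 1 transcript, XM_024447979, at 3.32% and 3.43% on day 8 and 26.2% and 23.4% on day 12. Each other transcript of the group stayed within its own range of earlier days. From day 8 to day 12 the TPM of the main start went down, from 24.4 and 25.1, while that of the upstream group went up, from 3.05 and 4.54, so the parts of the gene moved apart within each library whatever the scaling. NM_004508 alone went from 62.8% and 57.2% of the gene on day 8 to 17.6% and 14.7% on day 12. XM_024447979 differs from NM_004508 at both ends (1040023 to 1056396 against 1039419 to 1049366). A short transcript of neither group, XM_024447980 (1040023 to 1043628), went from 0.300% and 0.938% on day 8 to 5.66% and 13.0% on day 12. A change of start and a change of 3′ end thus cannot be told apart here. The neighbouring gene WDR37 overlaps the IDI1 locus by 320 bases, and its own level went from 6.72 and 5.67 TPM on day 8 to 2.82 and 4.24 TPM on day 12. How the counting divided reads between transcripts is not given in the sources used here, and no test was made of these shares.

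**Figure D3:**
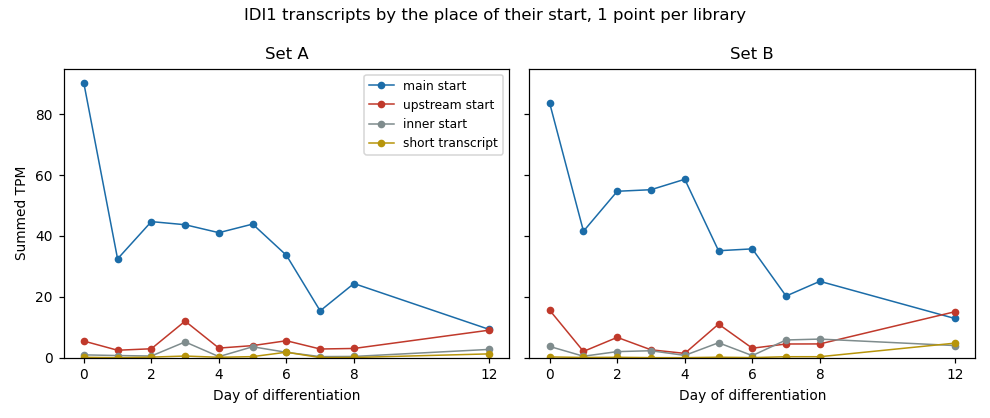
Summed TPM of IDI1 transcripts by the place of their start against the day of differentiation, for the libraries of set A (left) and set B (right), 1 point per library. The main start dropped to 9.33 and 12.9 TPM on day 12, where the upstream group reached 9.05 and 15.1 TPM.

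HMGCS1 showed a smaller shift in transcript shares, also noted after the values were seen. Its leading transcript, NM_001098272, held 48.6% to 72.3% of the gene in all libraries. A pair of shorter transcripts starts outside the start of the leading transcript. This pair held 1.46% to 11.7% on days 0 to 8 and 23.0% and 20.7% on day 12. Its 4.54 and 8.07 TPM on day 12 lay within its earlier range of 3.10 to 15.2 TPM. The pair also ends elsewhere, at 43289773 and 43289775 against 43287470, so start and 3′ end cannot be told apart. SQLE was read almost wholly from NM_003129, and FDFT1 from NM_004462, with 83.6% to 96.1% of the gene. In MVD, NM_002461 held between 2.16% and 78.9%, with the extremes in libraries of neighbouring days, and the transcripts of LSS and DHCR7 were as unsteady between the sets, so their shares are not described further.

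The wider pathway gives a frame for the 8 genes. Of 11 other enzymes of cholesterol synthesis, all 11 had a log2 fold change below 0 on day 1, with a median of -0.98. Of these, 1 was called lower, beside 0.125% of all genes. This was ACAT2, which makes acetoacetyl-CoA for HMGCS1 and fell from 255.5 and 259 TPM to 98.3 and 87.8 TPM (log2 fold change -1.39, SE 0.12, edgeR adjusted p = 0.000318). Day 8 against day 0, 8 of the 11 were called lower (19.3% of all genes) and 1 higher (17.6%). HSD17B7, a ketoreductase of the demethylation steps, fell by 2.74 on the log2 scale (SE 0.32, adjusted p = 3.43e-05). LBR, a sterol C14 reductase that also anchors the nuclear lamina, was the one that rose, by 0.79 (SE 0.20, adjusted p = 0.00883).

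On day 12 the other enzymes split. EBP, the sterol isomerase, went from 34.2 and 26.0 TPM on day 8 to 0.887 and 1.54 TPM on day 12. LBR fell from 225 and 206 TPM to 10.1 and 22.2 TPM. TM7SF2, the other C14 reductase, rose from 10.1 and 15.4 TPM to 46.4 and 51.1 TPM, with a log2 fold change of 3.25 (SE 0.26, edgeR adjusted p = 2.07e-07). The pair of reductases for a single step thus exchanged their order between days 8 and 12 in both sets. In all, 7 of the 11 were called lower (33.4% of all genes) and 3 higher (23.7%) by TMM.

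Among 7 genes of sterol sensing, SREBF2, the transcription factor of the pathway, stood at 107 and 105 TPM on day 0. It was at 74.4 and 59.0 TPM a day later, at 94.4 and 99.0 TPM by day 8 and at 47.0 and 61.1 TPM by day 12. It was called higher on day 8 than on day 0 (log2 fold change 0.48, SE 0.13, edgeR adjusted p = 0.0108) on counts scaled by TMM, as were 17.6% of all genes. Its TPM on day 8 was below that of day 0 in both sets, so that the direction turned with the scaling. MBTPS1 and MBTPS2, the proteases that release SREBF proteins, were called lower on day 8 than on day 0 (19.3% of all genes). From day 8 to day 12, MBTPS1 was called higher (log2 fold change 0.68, edgeR adjusted p = 0.000637), as were 23.7% of all genes. MBTPS2 was called lower (-2.16, edgeR adjusted p = 2.16e-06), as were 33.4%. INSIG1 holds SCAP in the endoplasmic reticulum and is itself a known target of the pathway. It went from 146 and 145 TPM to 41.3 and 62.3 TPM on day 1, without passing (-1.40, SE 0.38, edgeR adjusted p = 0.178). No gene of the list was called on day 1 by edgeR, where 0.125% of all genes were called lower and 0.256% higher. At an unadjusted p under 0.05 there were 2, and the share of all genes at that threshold is not given.

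Of 6 genes of efflux, ester storage and receptor turnover, 5 passed the filter. Of the sterol exporters, ABCA1 reached at most 0.299 TPM and ABCG1 was listed at 0 in every library. NR1H2, a nuclear receptor for oxysterols, rose from 68.0 and 73.1 TPM on day 0 to 159.6 and 184 TPM on day 8 (log2 fold change 1.90, SE 0.16, edgeR adjusted p = 3.38e-06), and SOAT1, which esterifies cholesterol, fell from 16.9 and 15.3 TPM to 2.50 and 1.98 TPM. MYLIP, a ubiquitin ligase induced by NR1H2 and NR1H3, rose from 6.70 and 9.76 TPM on day 8 to 36.4 and 36.4 TPM on day 12.

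The 8 genes of the isoprenoid branches, which draw on FDPS products, had a median log2 fold change of 0.00 on day 1. None was called by edgeR on that day, where 0.125% of all genes were called lower and 0.256% higher. None had an unadjusted p under 0.05 either, and the share of all genes at that threshold is not given. Day 8 against day 0, their median was -0.39, with 4 called lower (19.3% of all genes). All 7 genes of fatty acid synthesis were below 0 on day 1, with a median of -0.74. FADS1, a desaturase, was called lower (-1.15, SE 0.19, edgeR adjusted p = 0.0176), beside 0.125% of all genes. On day 8 against day 0, 6 of the 7 were called lower (19.3% of all genes), with a median of -1.50. SCD, the stearoyl-CoA desaturase, fell from 419.5 and 309 TPM on day 0 to 38.8 and 54.7 TPM on day 8.

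**Figure D4:**
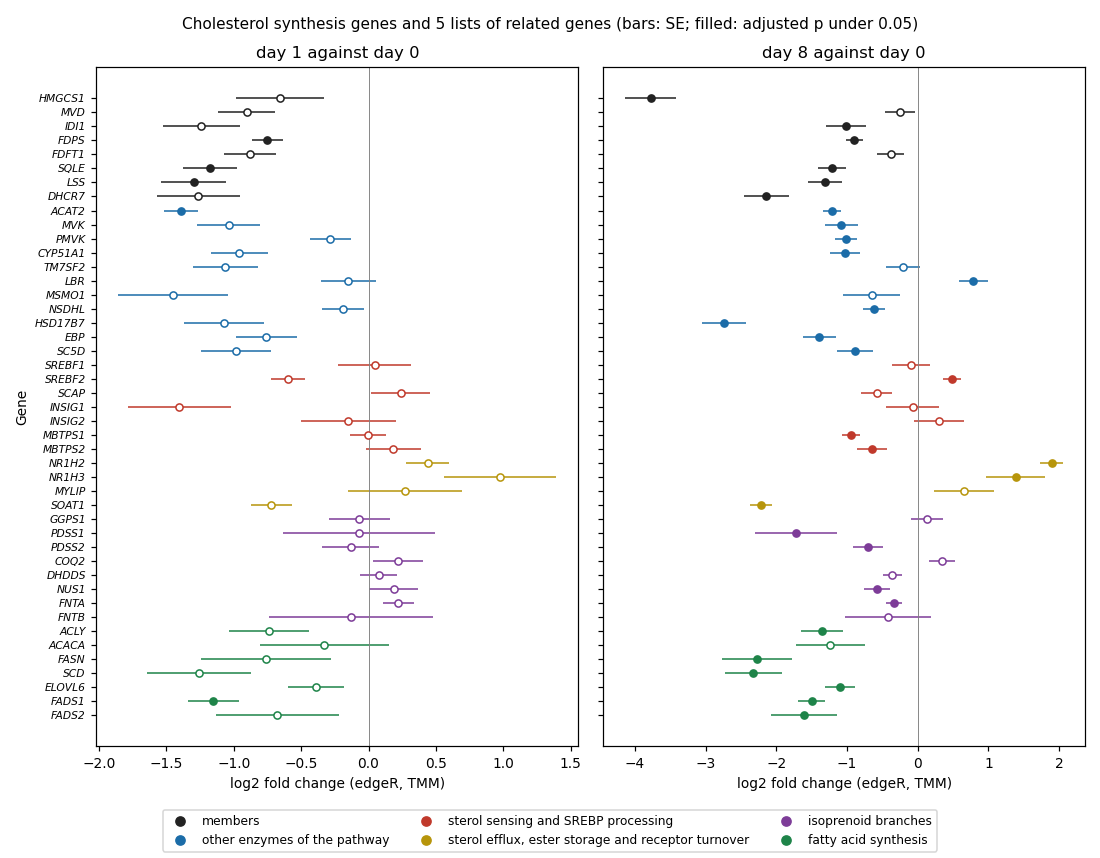
log2 fold changes (counts scaled by TMM, edgeR) of the 8 genes and 5 lists of related genes on day 1 (left) and on day 8 (right) against day 0, with bars for the SE and filled points for an adjusted p under 0.05. ABCA1 and ABCG1 are not drawn. The 11 other enzymes and the 7 genes of fatty acid synthesis lay to the left of 0 on day 1, as did the 8 members.

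The genes whose profile was most like the mean profile of the 8, among 9135 genes with a mean of at least 5 TPM, were ranked by Pearson r over the 20 libraries. Of those reported here, SCD came first (r = 0.85), followed by TMEM104 (0.85), HSD17B7 (0.80), YTHDF1 (0.79), CA5BP1 (0.77), RUFY1 (0.76), TMEM223 (0.76), ATXN2 (0.75) and TAP1 (0.75). SCD and HSD17B7 were also on the lists above. The likeness is a description of libraries that share a time course, and in set B alone 2 of the 10 highest genes were shared with this ranking.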

How the data were processed

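RNA from HUDEP-2 cells was sequenced as TruSeq Stranded mRNA libraries, 2 on each of 10 days. Per the labels, the authors used Trimmomatic 0.38, HISAT2 2.1.0, StringTie 2.1.3b and hg38. They deposited 4 tables of 170322 RefSeq transcripts with read counts (whole numbers, not normalized), FPKM (not used here) and TPM, which the authors scaled to a fixed total per library. The deposited transcript length is the same for all libraries and entered no test. The annotation release and the sharing of reads between transcripts are not given in the sources used here. Of 63 value columns 40 were used and 23 were not, namely all FPKM columns and those of an extra day 0 set, since 3 such sets were given for 2 day 0 samples.

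Transcripts were summed by gene symbol. Counts were tested with edgeR 4.0.16 (filterByExpr, TMM, glmQLFit with robust = TRUE, glmQLFTest) in 1 fit of 20 libraries with a coefficient for each day, for 16784 genes, with Benjamini-Hochberg adjustment over all of them and a threshold of 0.05. Standard errors were taken as the size of the log2 fold change over the root of the quasi-likelihood F. The scripts were tested on simulated data. Alternatives used DESeq2 1.42.0 and limma 3.58.1 on log2(TPM + 1) and log2(TPM + 0.1), so that those fold changes understate the change of low genes. The rescaled measure divides TPM by the share of genes that are neither globin nor ribosomal RNA.

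The named genes are the 8 members, 5 lists of related genes, the 10 genes most like the members and, for each member, transcripts with the highest mean TPM or at least 20% of the gene in a library. Among these, 1 of the 10 genes, 1 gene of a list and 1 sequence window are not reported here. Members and lists were chosen with earlier results of these data known. Promoter windows were read from hg38 at the starts in the deposited tables, with strands from GENCODE, in place of a RefSeq promoter table planned at first, because windows of that table reached into transcribed bases of the deposited transcripts. Python 3.11.15 with pandas 2.3.3 and R 4.3.3 were used.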

Additional observations from a re-analysis of the deposited data

How the results depend on the processing

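No paired analysis was possible because the columns name a day and carry no replicate number. The term for the set of tables below sets the libraries of set A against those of set B. It treats the tables of set B as a single group, and no label ties either set to a shared culture. For the alternative fits below, the share of all genes called is not given. For day 1 against day 0 the count was 3 lower in the analysis as reported, 7 with DESeq2 and with a term for the set of tables, 6 with limma on log2(TPM + 1) and on log2(TPM + 0.1), and 0 in a fit of only the days compared and in each fit without 1 library. For days 4 to 6 against day 1, a fit of only the days compared gave 0 lower in place of 1, and fits without 1 library gave 0 to 1 lower and 0 to 2 higher in place of 3. For day 8 against days 4 to 6, limma on either TPM scale gave 8 lower in place of 5, a fit of only the days compared gave 2, and fits without 1 library gave 1 to 5. For day 12 against day 8, limma on either TPM scale gave 4 lower in place of 1 and 0 higher in place of 4, and fits without 1 library gave 2 to 4 higher, with 1 lower throughout. For day 8 against day 0, fits without 1 library gave 5 to 6 lower. In a fit without 1 library, the lone library left for a day was assumed to vary like those of other days. All 8 genes differed between days under each alternative run for that test, which was added after seeing the data.

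Signs reversed in these cases. For day 12 against day 8, the log2 fold changes with limma on log2(TPM + 1) and log2(TPM + 0.1) were -0.59 and -0.61 for HMGCS1, -1.15 and -1.19 for MVD, -0.14 and -0.15 for IDI1, -0.31 and -0.31 for FDFT1 and -0.016 and -0.017 for LSS. Globin genes held up to 63.0% of the TPM of a library, and the cause was not tested. For day 8 against days 4 to 6, fits without 1 library gave -0.49 to 0.18 for IDI1, -0.26 to 0.14 for FDFT1 and -0.36 to 0.0013 for MVD, the highest values being those without the set A library of day 8, and edgeR called none of these 3 genes with all libraries. The likeness ranking shared 5 of its 10 genes with that by Spearman's rho, 7 with set A alone and 2 with set B alone. Depth limits none of the 8 genes, whose lowest count was 436.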
